A study of Mus musculus with 39 samples.

Results

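Insulin signalling and glucose uptake were followed here through 9 genes of epididymal adipose tissue, out of 29411 gene names on the array. The genes were Slc2a4, Slc2a1, Insr, Irs1, Irs2, Pik3r1, Akt2, Pck1 and Hk2, and they were picked by name, as a pathway. Each was measured by the brightest of its probes (15 probes in all for the 9 genes), and the other probes served as a check. RNA of C57BL/6J mice was measured on 39 one-colour Agilent arrays, with 1 array per diet and time point. LFC mice ate a low fat diet (10% of calories), sampled on 11 arrays at days 1, 6, 10, 14 and weeks 0, 3, 6, 9, 12, 15, 18. HFC mice ate a diet high in sucrose and in fat (60% of calories), sampled on 10 arrays at the same points without day 1. HF5, HF20 and HF75 mice ate the HFC diet plus KAL-1, a botanical formulation, at 5, 20 and 75 µg, and each dose was sampled on 6 arrays every 3 weeks between weeks 3 and 18. Mice were 3 to 4 weeks old at the start, each diet had 30 animals, and 5 per diet were taken at each 3 week step. Whether an array held 1 mouse or a pool is not given in the labels. Since no time point had a second array, replication came from the time points alone, and every p-value measures the spread between time points.

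Insulin binds its receptor (Insr), which phosphorylates the adaptor proteins IRS1 and IRS2. The adaptors recruit phosphatidylinositol 3-kinase, whose regulatory subunit p85 is encoded by Pik3r1, and the kinase AKT2 (Akt2) then drives vesicles that carry the glucose transporter GLUT4 (Slc2a4) to the surface of fat cells. GLUT1 (Slc2a1) carries glucose into most cells without insulin, hexokinase 2 (Hk2) traps it as glucose 6-phosphate, and phosphoenolpyruvate carboxykinase (Pck1) makes the glycerol backbone of triglyceride in fat cells. Much of this pathway is set by phosphorylation and by movement of proteins, which RNA levels do not show.

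Levels are given as the normalised log2 signal, which is the log2 signal of a probe minus the 75th percentile of its array, so that 1 unit is a doubling and a negative level lies below that percentile. Levels of different genes come from different probes and are not set against each other. The brightest probe of every gene was well above background on all 39 arrays. The Pck1 spot was saturated on 16 arrays and the Slc2a4 spot on 1, and levels there are lower bounds. A pair of arrays stood apart. On LFC week 3, 97.1% of all spots were well above background and the scanner software had flagged 16431 outliers. On HFC week 12 these were 94.5% and 10531, against 53.7% to 79.6% of spots on the other 37 arrays. The lowest share, 53.7%, was that of HF5 week 9, which was also the dimmest array. Its 75th percentile of signal was 119.5, and the next lowest was 347.5. Pik3r1 has no value on LFC week 3, where its spot was an outlier. Markers of fat cells (8 genes) had a median level of 1.81 to 6.37 on those 37 arrays, and all 8 were well above background on each of them.

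A second feature of the arrays touches most of the results. Immediate early genes such as Fos, Egr1 and Jun are switched on within minutes by stress and by handling of tissue. Over 7 such genes the median level was 3.97 to 5.92 on 27 of the 37 arrays and -0.45 to 2.05 on the other 10, with no array between. The low arrays, LFC week 3 included, were LFC days 1 and 6 and weeks 3 and 12, HFC days 6 and 10 and week 3, HF20 weeks 6, 12 and 18, and HF75 week 12. They made up 3 of 6 HF20 arrays, 1 of 6 HFC arrays at weeks 3 to 18, 1 of 6 HF75 arrays and 0 of 6 HF5 arrays. Among the early arrays they were 2 of 5 for LFC and 2 of 4 for HFC. The line between the sets, at a median of 3, was drawn after the values were seen.

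The insulin-responsive transporter Slc2a4 ranged over 27.7-fold across the 37 arrays, a lower bound since its highest spot, LFC week 12, was saturated. Its lowest, median and highest levels were 1.64, 2.56 and 5.68 on LFC and 1.28, 2.90 and 4.76 on HFC. They were 0.89, 2.82 and 4.19 on HF5, 1.37, 3.72 and 5.48 on HF20, and 1.96, 3.23 and 5.25 on HF75. All 5 diets overlapped, and the highest value of 4 of them fell at week 12 or week 18. Over weeks 3 to 18 the mean level ran from 2.56 ± 1.15 (SD) on HF5 through 2.58 ± 1.3 on HFC, 3.14 ± 1.5 on LFC and 3.27 ± 1.21 on HF75 to 3.57 ± 1.65 on HF20, and the whole order spanned less than the SD of any diet.

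The constitutive transporter Slc2a1 ranged over 19.3-fold. Its lowest, median and highest levels were 0.57, 2.51 and 3.56 on LFC and 0.36, 2.16 and 2.95 on HFC. They were 2.63, 2.95 and 3.64 on HF5, 0.42, 1.22 and 2.84 on HF20, and 1.01, 2.08 and 4.63 on HF75. The HF5 arrays were the tightest set. Their lowest value stood above the medians of HFC, HF20 and HF75 over the same weeks (2.52, 1.22 and 2.08) and below that of LFC (2.69). Mean levels over weeks 3 to 18 ran from 1.47 ± 1.1 (SD) on HF20 through 2.23 ± 0.98 on HFC, 2.3 ± 1.24 on LFC and 2.46 ± 1.31 on HF75 to 3.00 ± 0.37 on HF5, and no step between neighbours exceeded the SDs on both sides.

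The receptor Insr varied less, over 9.92-fold. Its lowest, median and highest levels were -2.89, -0.71 and 0.25 on LFC, -1.39, -0.88 and -0.45 on HFC, -2.90, -0.63 and 0.41 on HF5, -1.09, -0.54 and 0.20 on HF20, and -1.61, -0.54 and 0.16 on HF75. The lows of LFC and HF5 were single arrays, LFC week 3 and HF5 week 9. The means of the 5 diets over weeks 3 to 18 lay between -0.88 and -0.51. A dimmer Insr probe did not run with the brighter one (r = -0.19 across 37 arrays), so the receptor rests on a single probe.

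Irs1 and Irs2 encode the adaptors. Irs1 had a lowest, median and highest level of -0.71, 0.41 and 3.07 on LFC, -0.29, 1.22 and 2.69 on HFC, 0.19, 0.48 and 1.72 on HF5, 0.48, 0.89 and 2.44 on HF20, and 0.64, 1.26 and 2.95 on HF75. Irs2 had 1.28, 3.94 and 5.26 on LFC, 0.87, 3.66 and 4.88 on HFC, 4.10, 4.80 and 5.43 on HF5, 2.11, 3.85 and 4.39 on HF20, and 1.71, 4.10 and 4.93 on HF75. On HFC days 6, 10 and 14, Irs1 stood at 2.69, 2.36 and 2.63, and Irs2 at 0.87, 2.33 and 2.77, its lowest 3 values of that diet. Mean Irs1 over weeks 3 to 18 ran from 0.52 ± 0.93 (SD) on LFC to 1.55 ± 0.97 on HF75, and mean Irs2 from 3.48 ± 1.53 on LFC to 4.80 ± 0.43 on HF5. Neighbours in the Irs1 order differed by less than their SDs. In the Irs2 order only the last step, from HFC (4.00 ± 0.72) to HF5, exceeded both SDs. A dimmer Irs1 probe ran only loosely with the brighter one (r = 0.37).

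RefSeq promoters of GRCm38.p6, from 250 bases before to 50 after the gene start, were found for 7 of the 9 genes. They are shown for Irs1 and Irs2, the adaptors compared above, for Slc2a1, whose levels on the arrays split by immediate early genes are given below, and for Pck1. All were searched on both strands for the E-box CACGTG and for ACGTCA, the core of the cAMP response element, and matches are in capitals.
Irs1, chr1:82291390-82291689, minus strand: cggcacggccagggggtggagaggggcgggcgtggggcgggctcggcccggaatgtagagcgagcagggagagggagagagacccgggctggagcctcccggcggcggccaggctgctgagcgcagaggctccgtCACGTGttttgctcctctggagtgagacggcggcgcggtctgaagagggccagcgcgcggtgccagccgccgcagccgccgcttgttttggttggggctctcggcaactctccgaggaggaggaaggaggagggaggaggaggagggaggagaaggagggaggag
Irs2, chr8:11008880-11009179, minus strand: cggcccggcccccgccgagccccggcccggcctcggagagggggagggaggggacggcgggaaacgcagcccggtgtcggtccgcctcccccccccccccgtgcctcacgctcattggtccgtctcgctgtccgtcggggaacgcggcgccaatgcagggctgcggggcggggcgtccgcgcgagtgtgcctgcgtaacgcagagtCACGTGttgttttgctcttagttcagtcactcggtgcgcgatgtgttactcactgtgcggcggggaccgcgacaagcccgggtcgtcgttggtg
Slc2a1, chr4:119108495-119108794, plus strand: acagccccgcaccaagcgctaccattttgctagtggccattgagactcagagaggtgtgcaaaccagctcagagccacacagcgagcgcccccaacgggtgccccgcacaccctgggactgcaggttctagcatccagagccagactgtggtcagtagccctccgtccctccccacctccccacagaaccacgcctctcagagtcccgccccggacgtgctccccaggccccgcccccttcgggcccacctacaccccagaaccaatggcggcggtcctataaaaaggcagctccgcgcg
Pck1, chr2:173152823-173153122, plus strand: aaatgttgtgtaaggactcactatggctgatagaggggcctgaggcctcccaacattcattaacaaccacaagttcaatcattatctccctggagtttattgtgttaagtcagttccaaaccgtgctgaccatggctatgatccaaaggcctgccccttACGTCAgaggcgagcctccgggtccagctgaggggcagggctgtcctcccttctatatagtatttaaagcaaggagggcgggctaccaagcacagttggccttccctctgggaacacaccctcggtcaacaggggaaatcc
An E-box stood in the Irs1 and Irs2 promoters, starting at position -115 and at position -44 from the gene start, and in 7.15% of all 32851 promoters of the same length. The longest runs of bases that Irs1 and Irs2 shared were 10 bases long. They were GTCACGTGTT, which holds the E-box, and TGTTTTGCTC, which starts beside or within it, each found in 25 of the 32851 promoters. The cAMP element core stood in the Pck1 promoter at position -91 and in the Hk2 promoter at position -51, and in 7.51% of all promoters. Neither motif was in the Slc2a1 window. These are matches of letters, and no binding was measured.

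Pik3r1 and Akt2 carry the signal on from the adaptors. Pik3r1 had a lowest, median and highest level of 0.11, 0.85 and 2.07 on LFC, 0.06, 1.25 and 1.55 on HFC, 0.45, 1.00 and 1.67 on HF5, -0.16, 0.42 and 0.76 on HF20, and 0.62, 1.06 and 1.46 on HF75. It was the steadiest of the 9 genes, with a range of 4.69-fold over 37 arrays, and HF20 was its lowest diet, with a mean of 0.37 ± 0.31 (SD) against 1.01 ± 0.45 on HF5, the next, and 1.17 ± 0.37 on HFC, the highest, over weeks 3 to 18. Akt2 had -1.67, 1.37 and 3.33 on LFC, 0.03, 1.40 and 3.22 on HFC, -1.21, 0.66 and 2.65 on HF5, 0.61, 2.14 and 3.61 on HF20, and -0.92, 0.95 and 2.20 on HF75. Akt2 ranged over 28.2-fold, and a dimmer Akt2 probe ran with it closely (r = 0.91). Its mean over weeks 3 to 18 ran from 0.60 ± 1.39 (SD) on HF5 to 2.16 ± 1.1 on HF20, with 0.71 on LFC, 0.90 on HF75 and 1.1 on HFC between.

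Pck1 had a lowest, median and highest level of 2.86, 4.28 and 6.56 on LFC, 3.03, 5.55 and 6.14 on HFC, 2.42, 4.94 and 6.81 on HF5, 4.09, 5.74 and 6.69 on HF20, and 2.65, 5.78 and 6.74 on HF75. Its high values were saturated, on 4 LFC, 4 HFC, 1 HF5, 4 HF20 and 3 HF75 arrays, where the level is a lower bound. Hk2 had -0.51, 3.10 and 4.42 on LFC, 2.38, 2.88 and 4.52 on HFC, 1.86, 3.42 and 4.38 on HF5, 2.96, 3.33 and 4.10 on HF20, and 1.26, 3.42 and 4.56 on HF75. The Hk2 low on LFC was the week 3 array, and the other 10 LFC arrays lay at 2.02 or above. Over weeks 3 to 18, mean Pck1 ran from 4.68 ± 1.62 (SD) on HF5 to 5.52 ± 0.89 on HF20 and mean Hk2 from 2.83 ± 1.71 on LFC to 3.41 ± 0.44 on HF20, and each span was below the SD of its lowest diet.

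**Figure D1:**
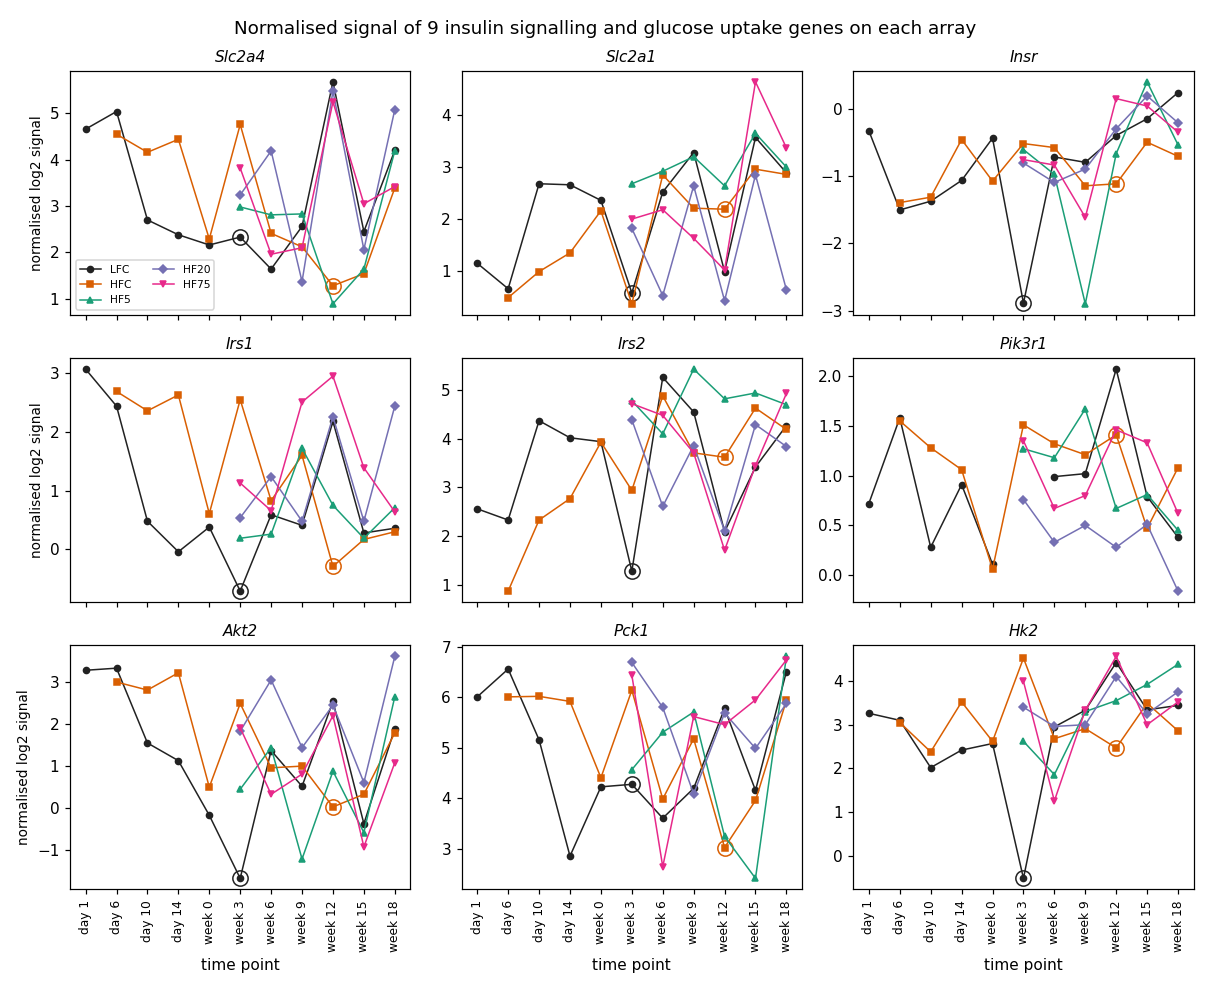
Normalised log2 signal of the 9 genes (y axis) at each time point (x axis), 1 point per array and 1 line per diet; rings mark LFC week 3 and HFC week 12. The diets cross in all 9 panels, and the HF20 line of Pik3r1 lies lowest at 5 of its 6 weeks.

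The first comparison asked whether the high fat diet changed these genes, over the 10 time points that HFC and LFC share. None of the 9 genes passed limma's test with Benjamini-Hochberg adjustment (adjusted p 0.998 to 0.999), and differences of HFC minus LFC ranged from -0.38 to 0.71 with a median of 0.14. Over the whole array 0 of 29698 probes passed (0%), and 907 (3.05%) had an unadjusted p under 0.05, none of them a brightest probe of the 9 genes. A plain paired test gave the same count of 0, with 945 probes at an unadjusted p under 0.05. The smallest p-values were those of Irs1 and Slc2a1. Irs1 had a mean level of 1.34 ± 1.15 (SD) on HFC and 0.64 ± 0.96 on LFC, a difference of 0.71 (SE 0.46), and was higher on HFC at 7 of 10 time points. It was 0.42 without week 3. The dimmer Irs1 probe differed by 0.84 (SE 0.22, p = 0.00361, adjusted p = 0.998 in limma). Slc2a1 had 1.83 ± 0.98 on HFC and 2.21 ± 1.08 on LFC, a difference of -0.38 (SE 0.26), and was lower on HFC at 8 of 10 time points. Without LFC week 3 and HFC week 12 these differences were 0.79 and -0.59, with adjusted p = 0.714 for each in limma. Slc2a4 differed by -0.02 (SE 0.55) and Insr by 0.03 (SE 0.29), each higher on HFC at 5 of 10 time points.

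Against LFC, the mean of all 4 high fat diets over weeks 3 to 18 gave 0 of 9 genes as well, where 0 of 32083 probes passed (0%) and 1942 (6.05%) had an unadjusted p under 0.05. Irs1 was 0.55 (SE 0.40) higher, at 5 of 6 weeks, and Irs2 0.56 (SE 0.42) higher, at 4 of 6 weeks. Without week 3 the Irs1 difference was 0.30. On LFC week 3 Irs2 stood at 1.28. The Irs2 difference was 0.08 without week 3, and 0.03 without the arrays LFC week 3 and HFC week 12. The Pik3r1 fit leaves out LFC week 3.

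The doses of KAL-1 were each compared with the high fat diet alone over weeks 3 to 18, blocked by week. The 3 comparisons share the HFC arrays. With HF5, 0 of 9 genes passed, and 0 of 32083 probes (0%) with 1103 (3.44%) at an unadjusted p under 0.05. Slc2a1 was higher on HF5 than on HFC at 6 of 6 weeks, by 2.32 at week 3, 0.06 at week 6, 0.99 at week 9, 0.46 at week 12, 0.70 at week 15 and 0.14 at week 18. The mean difference was 0.78 (SE 0.45), with an adjusted p of 0.955 in limma and an exact two-sided permutation p of 0.0312, the smallest that 6 pairs allow. Without week 3, where HFC was an array of low immediate early genes, the difference was 0.47. Irs2 was 0.80 (SE 0.53) higher on HF5, at 5 of 6 weeks. Its largest differences were 1.84 at week 3 and 1.73 at week 9, where the HF5 array was the dimmest of all. Without the arrays of low immediate early genes the differences were 0.51 for Slc2a1 and 0.54 for Irs2.

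With HF20, 0 of 9 genes and 0 of 32083 probes (0%) passed, and 1619 probes (5.05%) had an unadjusted p under 0.05. Pik3r1 was the only one of the 9 genes with such a p. It stood at 0.76, 0.33, 0.50, 0.28, 0.51 and -0.16 on HF20 at weeks 3, 6, 9, 12, 15 and 18, and at 1.51, 1.32, 1.21, 1.41, 0.47 and 1.08 on HFC. HF20 was lower at 5 of 6 weeks and the arrays overlapped only through HFC week 15. The difference was -0.80 (SE 0.24), a 1.74-fold lower level, with p = 0.00345 and adjusted p = 0.772 in limma, and an exact two-sided permutation p of 0.0625. It was -0.69 without the arrays of low immediate early genes. The other probes of Pik3r1 gave a mixed picture. The second brightest was lower on HF20 at 6 of 6 weeks, with a difference of -0.46 (SE 0.55), and the dimmest differed by -0.50 (SE 0.50). The third, the only one that the file assigns to another transcript (NM_001024955 in place of NM_001077495), differed by 0.15 (SE 0.55). Across 37 arrays the brightest probe correlated with these at only r = 0.04, 0.32 and 0.03, in that order. Akt2 was 1.07 (SE 0.56) higher on HF20, at 5 of 6 weeks, and its dimmer probe 0.96 higher. Without the arrays of low immediate early genes the Akt2 difference was 0.74. The probes of Irs1 went opposite ways, by 0.38 (SE 0.50) for the brighter and -0.81 (SE 0.30, p = 0.0121, adjusted p = 0.772 in limma) for the dimmer.

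**Figure D2:**
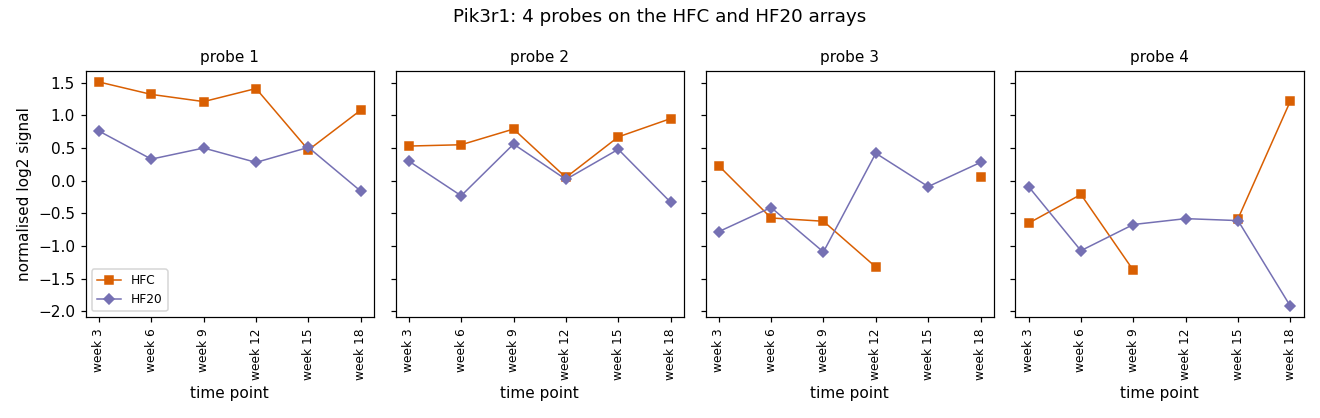
Normalised log2 signal (y axis) of the 4 Pik3r1 probes, numbered from brightest to dimmest, on the HFC and HF20 arrays at weeks 3 to 18 (x axis); outlier spots are missing. HF20 lies below HFC at 5 of 6 weeks for probe 1 and at 6 of 6 for probe 2, and the lines cross for probes 3 and 4.

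With HF75, 0 of 9 genes and 0 of 32083 probes (0%) passed, with 494 probes (1.54%) at an unadjusted p under 0.05. Pck1 had 5.48 ± 1.47 (SD) on HF75 and 4.71 ± 1.24 on HFC, a difference of 0.77 (SE 0.61), and was higher at 5 of 6 weeks. It was saturated on 3 HF75 arrays and on HFC week 3, and without week 12 the difference was 0.44. It was 0.08 with array weights and 1.19 without week 6. Irs1 was 0.69 (SE 0.50) higher at 4 of 6 weeks, while its dimmer probe differed by -0.32. Without LFC week 3 and HFC week 12 the Irs1 difference was 0.26, and without week 3 it was 1.11. Across the 3 doses Irs1 differed from HFC by -0.22, 0.38 and 0.69 with rising dose, while its dimmer probe differed by -0.26, -0.81 and -0.32. Slc2a1 differed from HFC by 0.78, -0.75 and 0.24, and Irs2 by 0.80, -0.48 and -0.16. Slc2a4 differed by -0.03, 0.98 and 0.68 and Akt2 by -0.49, 1.07 and -0.20. Slc2a4 differed at week 12 by 4.2 on HF20 and 3.97 on HF75, and without week 12 its mean differences were 0.34 and 0.03. The SEs of the differences over all 6 weeks were 0.45 to 0.67 for the brightest probes of these 5 genes. The steps between doses were not tested.

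**Figure D3:**
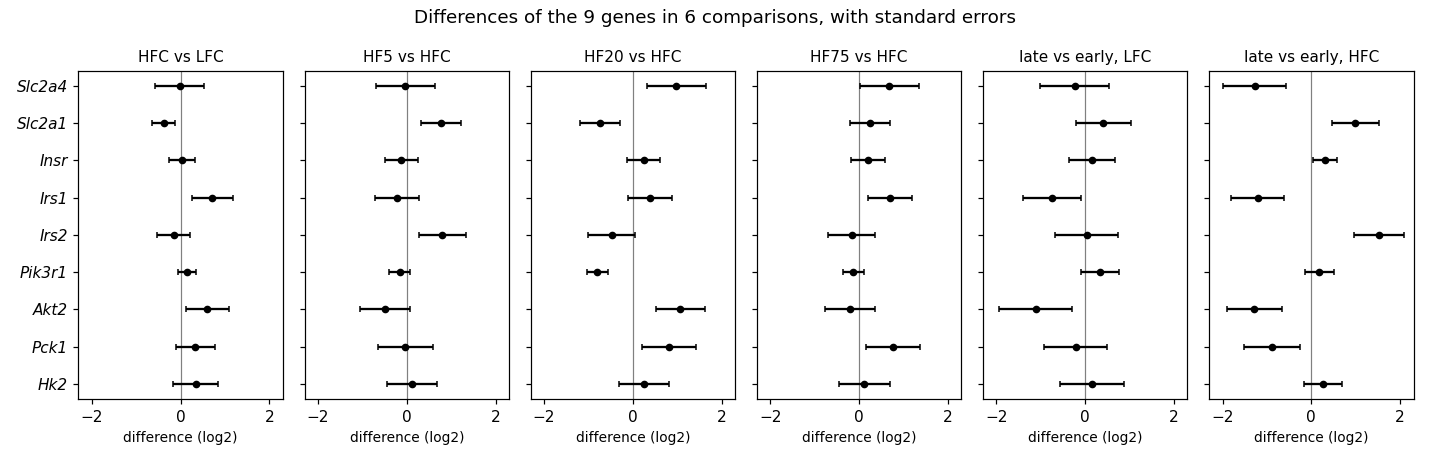
Difference in normalised log2 signal (x axis) of the 9 genes (y axis) in 6 comparisons, with points for the estimate of limma and bars for 1 SE. Pik3r1 in HF20 against HFC (-0.80) and Irs2 in late against early HFC (1.52) lie farthest from 0 relative to their bars.

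Change over time was taken as weeks 3 to 18 (late) against days 1 to 14 and week 0 (early) within a diet. The scans of the day 1 to day 14 arrays came after those of all the weeks, so for these arrays scan and time cannot be told apart. Week 0, also early, was scanned among the arrays of weeks 3 to 18, and some differences are also given against week 0 alone. On LFC, 0 of 9 genes passed, where 145 of 30958 probes passed (0.468%) and 1699 (5.49%) had an unadjusted p under 0.05. The 145 became 0 without the arrays of low immediate early genes. Akt2 was 1.11 lower late than early, from a mean of 1.83 ± 1.49 (SD) to 0.71 ± 1.55, and Irs1 0.75 lower, from 1.27 ± 1.39 to 0.52 ± 0.93. Without the arrays of low immediate early genes the differences were 0.01 and 0.13. On HFC, 0 of 9 genes and 0 of 29907 probes (0%) passed, with 5108 probes (17.1%) at an unadjusted p under 0.05. With array weights 5 of the 9 passed (Slc2a4, Slc2a1, Irs1, Irs2 and Akt2, adjusted p 0.0124 to 0.0209 in limma), as did 8014 of the 29907 probes, with an Irs2 difference of 2.34. Irs2 stood at 0.87, 2.33, 2.77 and 3.93 on days 6, 10 and 14 and week 0, and at 2.94, 4.88, 3.71, 3.62, 4.63 and 4.19 at weeks 3 to 18. All 6 late values exceeded the early mean of 2.48, and 3 of 4 early values lay below every late one. The difference was 1.52 (SE 0.56), or 2.87-fold, with p = 0.0210 and adjusted p = 0.247 in limma and an exact two-sided permutation p of 0.0429. It was 0.86 without the arrays of low immediate early genes, 0.57 with their median level as a covariate and 0.98 without day 6. Against week 0 alone it was 0.07. Akt2 was 1.29 (SE 0.62), Slc2a4 1.28 (SE 0.70) and Irs1 1.21 (SE 0.60) lower late than early on HFC, and Slc2a1 0.99 (SE 0.53) higher. Against week 0 alone Akt2, Slc2a4 and Irs1 turned the other way, by 0.59, 0.29 and 0.25, and Slc2a1 was 0.08 higher. The dimmer Irs1 probe was 0.24 (SE 0.39) higher late.

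The change with time in HFC minus LFC gave 0 of 9 genes and 0 of 29698 probes (0%), with 1561 probes (5.26%) at an unadjusted p under 0.05. Irs2 was the only one of the 9 with such a p. HFC minus LFC averaged -1.19 ± 0.86 (SD) over the 4 early time points and 0.52 ± 1.08 over the 6 late ones, and the week 0 value (-0.01) lay above 3 of the late ones. The change of 1.71 (SE 0.61) had p = 0.0177 and adjusted p = 0.833 in limma and an exact two-sided permutation p of 0.0381. It was 1.17 without LFC week 3 and HFC week 12, and 0.61 without the arrays of low immediate early genes.

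Several of the 9 genes differed between the sets of arrays split by their immediate early genes. The 10 arrays with a low median of immediate early genes had the higher Slc2a4 levels, from 4.16 to 5.68 against 0.89 to 4.44 on the other 27. Irs1 was 1.24 to 3.07 on the 10 arrays and -0.04 to 2.63 on the 27, and Akt2 2.20 to 3.61 and -1.21 to 3.22. Slc2a1 was 0.36 to 1.14 on the 10 arrays and 1.34 to 4.63 on the 27, with no overlap, and Irs2 was 0.87 to 3.84 and 2.77 to 5.43. The share of all probes without overlap between the sets was not counted, so the split is not read as particular to Slc2a1. Pck1 was saturated on all of the 10 arrays, so its range there is a ceiling and is not compared. Insr, Pik3r1 and Hk2 overlapped over most of their ranges. These sets are arrays grouped after the data were seen, so no test between them is given. Several differences above are also given without the arrays of low immediate early genes. How much of each result goes with the split was not tested.

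**Figure D4:**
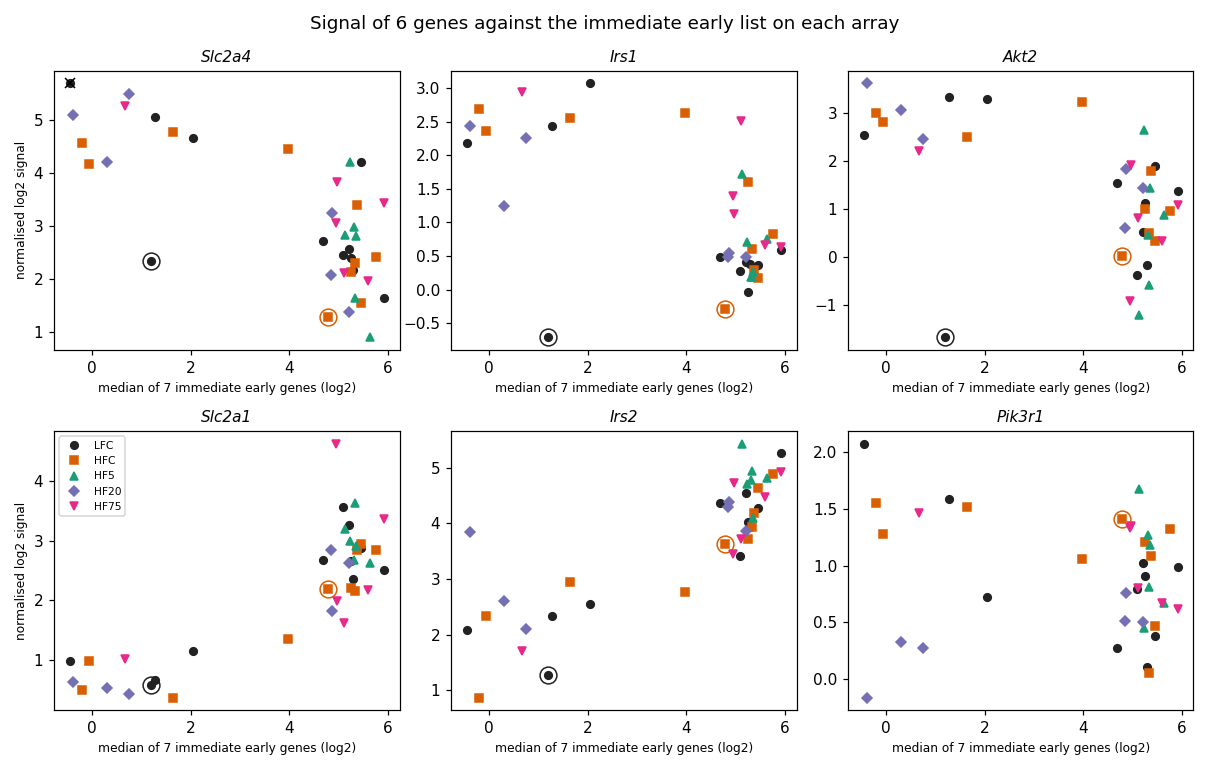
Normalised log2 signal of 6 of the genes (y axes) against the median level of 7 immediate early genes (x axes), 1 point per array and shape by diet; rings mark LFC week 3 and HFC week 12, and a cross marks a saturated spot. Arrays fall in 2 sets along x, and Slc2a1 lies at 0.36 to 1.14 on the low set and at 1.34 to 4.63 on the high set (without the ringed arrays).

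Of the 36 pairs of genes, 19 correlated across all 37 arrays at an adjusted permutation p under 0.05, and 19 after the mean of each time point was removed. The share among pairs of any genes on the array was not computed, so these counts are not read as a trait of the pathway. Because the arrays fall in 2 sets, correlations are given within each. Among the 27 arrays of the high set only 2 pairs did so. Slc2a4 correlated with Pck1 (Pearson r = 0.79, Spearman rho = 0.82, permutation p = 1e-05 for each, the smallest possible, adjusted p = 0.00036), and r was 0.79 without the 2 arrays farthest from the Slc2a4 median. On the 21 arrays where Pck1 was not saturated r was 0.64 and rho 0.68 (adjusted permutation p = 0.00275 and 0.0017), and r was 0.55 without the 2 farthest. Slc2a1 correlated with Akt2 (r = -0.57, permutation p = 0.00188, adjusted p = 0.0338; rho = -0.39, p = 0.0435, adjusted p = 0.261), and r was -0.33 without the 2 farthest arrays, so this relation rests on them. Among the 10 arrays of the low set no pair passed. Within the high set Slc2a1 and Irs2 had r = 0.21, and Irs1 and Irs2 r = -0.35 (adjusted permutation p = 0.606 and 0.258), with rho = 0.26 and -0.05.

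Levels of Pck1 and Slc2a4 were set against 8 fat cell markers (Adipoq, Plin1, Fabp4, Cidec, Lep, Retn, Pparg and Lipe), where saturation limits what can be read. The Pck1 spot was saturated on all 10 arrays of the low set and on 6 of the 27 of the high set, and its signal before scaling was 15.94 to 16.06 (log2) on every saturated array, so its normalised level there follows the percentile that was subtracted. Adipoq was saturated on 16 arrays, Cidec on 18, Plin1 on 10, Retn on 4 and Fabp4 on all 39, and Lep, Pparg and Lipe on none. With the median of the 8 markers, Pck1 had r = 0.91 and rho = 0.93 on the 27 arrays. On the 21 of these where Pck1 was not saturated it had r = 0.88 and rho = 0.91 (adjusted permutation p = 5e-05 for each, over 5 relations), and r = 0.89 without the 2 farthest arrays. Fabp4 was the only saturated marker on most of those 21 arrays, and 2 markers were saturated on HF5 week 6 and HFC week 18. With the median of the 3 markers that were saturated on no array, Pck1 had r = 0.31 and rho = 0.26 on the 21 arrays (adjusted permutation p = 0.221 and 0.321). The cause of this drop was not tested. No correlation of Pck1 is given for the low set. Slc2a4 had r = 0.86 and rho = 0.86 with the 8 markers on the 27 arrays, and r = 0.74 and rho = 0.60 with the 3 (permutation p = 1e-05 and 0.00105). On the 21 arrays Slc2a4 had r = 0.68 with the 8 markers and 0.24 with the 3 (adjusted permutation p = 0.00207 and 0.291). On the low set it had r = -0.04 with the 3. In whole tissue a lower share of fat cells and less RNA of a gene per fat cell cannot be told apart. Irs1 ran against endothelial markers on the 27 arrays (r = -0.70, rho = -0.56, adjusted permutation p = 0.00045 and 0.0228), and r was -0.56 without the 2 farthest arrays. Irs2 ran with the immediate early median within the 27 arrays (r = 0.61, adjusted permutation p = 0.00574), but r was 0.33 without the 2 farthest.

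**Figure D5:**
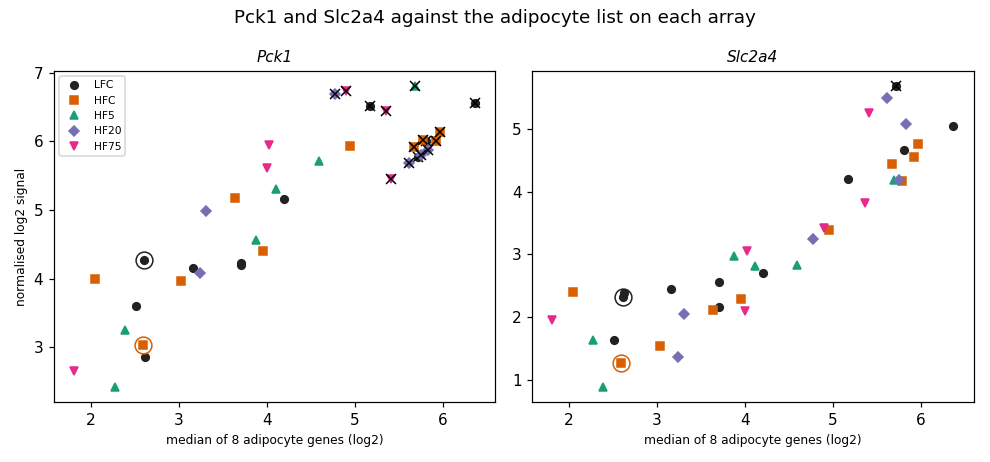
Normalised log2 signal of Pck1 and Slc2a4 (y axes) against the median level of 8 adipocyte genes (x axes), 1 point per array and shape by diet; rings mark LFC week 3 and HFC week 12. Crosses mark arrays where the plotted gene was saturated, which were 16 for Pck1 and 1 for Slc2a4, and whose levels are lower bounds; 5 of the 8 markers were saturated on some arrays.

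The genes most like each of the 9 were sought among 20236 others, as the highest correlation over 36 arrays after the mean of each time point was removed. For Pck1 they were Adipoq (r = 0.90), Plin1 (0.90) and Plin4 (0.89), an adipokine and a pair of lipid droplet coat proteins, of which Adipoq and Plin1 had saturated spots too. For Slc2a4 they were Cisd1, a mitochondrial outer membrane protein, Clstn3 and Sdhd, a subunit of succinate dehydrogenase (0.95 each). For Slc2a1 they were Eml1, Chd7 and 4931440P22Rik (0.95 each), for Irs1 E130311K13Rik (0.93), Zfp770 (0.91) and Fundc1 (0.91), and for Irs2 Dusp16 (0.90), AB041803 (0.89) and Zfp568 (0.88). For Akt2 they were Galm, Dhrs4 and Iah1 (0.93 each), for Insr Cwc22 (0.82), Gm4905 (0.80) and Polr2h (0.80), for Hk2 Rpp38 (0.77), Car13 (0.76) and Prkca (0.75), and for Pik3r1 Mid1ip1 (0.78), Gm8120 (0.72) and Gm9021 (0.71). These correlations span both sets of arrays, and the part of the split in them was not tested.

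The rest of the pathway was read from 89 further genes in 9 lists, of receptors and adaptors, the PI3K and AKT arm, negative regulators, GLUT4 vesicle traffic, other glucose transporters, glycolysis, glyceroneogenesis, glycogen and downstream factors. None of those tested passed the adjusted test in any of the 8 comparisons. In HFC against LFC, 1 of 87 genes (1.15%) had an unadjusted p under 0.05, beside 3.05% of all probes. It was the fructose transporter Slc2a5, with a difference of -1.90 (SE 0.61). The next were Pik3cd, a catalytic subunit of PI3K (0.54), and Inppl1 (0.40). In the mean of the high fat diets against LFC, 7 of 88 (7.95%) had one beside 6.05% of all probes, 5 higher and 2 lower. Slc2a5 differed by -2.75 (SE 0.73) and the motor protein gene Myo1c by 0.86 (SE 0.30), with adjusted p = 0.763 in limma for each. Of 6 epididymis markers, 0 to 6 were well above background per LFC or HFC array, 1 to 6 on HF20, 0 to 5 on HF5 and 0 to 3 on HF75. Their median level ranged from -8.03 to 2.87 on LFC, -8.57 to 1.79 on HFC, -9.14 to 1.76 on HF20, -7.90 to -2.11 on HF5 and -8.19 to -6.00 on HF75. Their part in the Slc2a5 difference was not tested.

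Against HFC, 0 of 88 list genes on HF5 had an unadjusted p under 0.05, beside 3.44% of all probes, and 0 of 88 on HF75, beside 1.54%. On HF20, where 5.05% of all probes had one, there were 3 of 88 list genes (3.41%). Those 3 were all higher on HF20, namely the neuronal-type glucose transporter Slc2a3 (0.81, SE 0.30), the rodent fat cell adaptor Irs3 (1.44, SE 0.67) and the glycogen phosphorylase Pygb (1.27, SE 0.61), at an adjusted p of 0.772 in limma. On HF5 the smallest p-values were those of Tbc1d1, Sh2b2 and Ptpn1, with differences of 0.68, -0.57 and 0.45. On HF75 they were those of Rps6kb1, Trib3 and Pdk4, with differences of 0.58, 0.49 and 0.72. Late against early on LFC, where 5.49% of all probes had an unadjusted p under 0.05, 2 of 88 list genes (2.27%) had one. They were Pygb (-1.47) and Inppl1, a phosphatase that opposes PI3K (-0.82), followed by Grb10 (-1.11). On HFC there were 14 of 87 (16.1%), beside 17.1% of all probes, 3 higher late and 11 lower. The smallest p-values were those of Lnpep, a resident protein of GLUT4 vesicles (0.87, SE 0.23), Fbp1 (-3.54, SE 1.01) and the glycolytic enzyme Eno1 (-1.12, SE 0.33), with adjusted p of 0.204 to 0.217 in limma. By list, 3 of 7 glyceroneogenesis genes, 3 of 14 glycolysis genes and 2 of 8 glycogen genes were among the 11 that were lower. In the change of HFC minus LFC, where 5.26% of all probes had an unadjusted p under 0.05, 1 of 87 list genes (1.15%) had one. It was Irs3 (-1.70), followed by Hk1 (1.78) and Igf1r (1.17).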

How the data were processed

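The deposited scanner files hold intensity values that the authors' Feature Extraction software (10.5.1.1 per the file headers, 9.1 per the submitters' notes) had background-subtracted, on annotation of mouse build mm9. The deposited table of the authors' own log2 differences from LFC was not used.

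Outlier spots were treated as missing values. The processed signal was log2 transformed, the 75th percentile of the array was subtracted, and the spots of a probe were averaged. A probe entered a test if it stood well above background on 10 of 20 arrays (HFC against LFC), 6 of 30 (weeks 3 to 18) or 5 (within a diet). The test was that of limma 3.58.1 (R 4.3.3), two-sided, with Benjamini-Hochberg adjustment over all probes tested and a threshold of 0.05. Time point, which runs with scan date apart from LFC week 3 and week 6, was a block in comparisons of diets. The fit was also run on simulated data, with independent values for each probe and array. The simulation held no time point effects and no split of the arrays, so it cannot show how the fit behaves under them. Differences between diets were also tested by an exact permutation that flips the sign of the difference at each time point. Late against early was tested by exact permutation of the time points, and correlations by 100000 permutations of the arrays in numpy 2.4.6. The latter shuffled arrays freely over diets and time points, so p-values of correlations treat the arrays as independent.

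All 9 genes and their values on each diet are given. In each comparison the genes named were those with an unadjusted p under 0.05, or the 2 smallest p-values where fewer had one. Of the pathway lists the 3 smallest p-values were named, apart from a result that is not reported here, and for each gene the 3 with the highest correlation. The genes, lists and tests were chosen with earlier results of these data known. Marker lists covered adipocyte, macrophage, lymphoid, endothelium, erythroid, skeletal muscle, brown fat, liver, epididymis and immediate early genes. On the 37 arrays their medians ranged from -0.32 to 2.25 for macrophage, -5.00 to 0.55 for lymphoid, -0.63 to 4.60 for erythroid, -5.83 to 0.17 for skeletal muscle, -3.01 to 1.64 for brown fat and -8.44 to -3.74 for liver genes, and the liver median was 1.72 on LFC week 3. Promoters are RefSeq sequences. Precision is limited by how few arrays there are.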

Additional observations from a re-analysis of the deposited data

Results flagged for a closer look

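Single arrays far from the rest of their diet were sought for each gene on the diets with 10 or fewer values, which were 37 sets, and chance alone flags about 1 in 20 of such sets. Irs1 on HF5 week 9, the dimmest array, stood at 1.72, with the next value at 0.75. Pck1 on HF75 week 6 stood at 2.65, with the next value at 5.46. That next value, at week 12, was saturated, as were those of weeks 3 and 18, so the spread above the low value is not known. Hk2 on HFC week 3 stood at 4.52, with the next value at 3.52. Pck1 on HF75 week 6 went with the lowest adipocyte median of that diet (1.81), and its part in the value was not tested.

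The change of Irs2 from early to late time points differed between HFC and LFC by 1.71 (limma p = 0.0177, adjusted p = 0.833 over all probes), and all 6 late differences of HFC minus LFC lay above the early mean, although the early week 0 difference (-0.01) exceeded 3 of them.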

How the results depend on the processing

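The count of the 9 genes past the adjusted threshold was 0 under every alternative of all 8 comparisons, including each time point left out (lowest 0, highest 0), with an exception. With array weights, late against early on HFC gave 5 of 9 genes (Slc2a4, Slc2a1, Irs1, Irs2 and Akt2, adjusted p 0.0124 to 0.0209 in limma) and 8014 of 29907 probes in place of 0. That setting gave the HFC arrays weights from 0.355 (week 3) to 2.70 (week 15). Among the early arrays, days 6 and 10, of low immediate early genes, had 2.02 and 1.5, and day 14 and week 0 had 0.922 and 0.471. The late array of low immediate early genes was week 3. The Irs2 and Akt2 differences with these weights were 2.34 and -1.91. Without week 0 the same comparison gave 833 probes and no gene of the 9. Median scaling gave 48 probes there. The cause was not tested. Within LFC 145 probes passed, 51 to 212 without each time point, 332 with array weights, and 0 with normexp background, against week 0 alone or without the arrays of low immediate early genes. Pairs of genes that correlated numbered 19 of 36, 19 with time point means removed, 2 in the high set of arrays and 0 in the low set, which hold fewer arrays. The share among pairs of any genes was not computed.

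Alternatives were run for 16 named differences, and 10 values reversed, all short of the threshold. They were Irs2 in the mean of high fat diets with array weights (-0.04), Pik3r1 in HF20 with the probe of the other transcript (0.15) and Irs1 in HF75 with its dimmer probe (-0.32). Late against early on LFC reversed for Irs1 (0.14) and Akt2 (0.88) against week 0 alone, for Irs1 with its dimmer probe (0.24), and without the arrays of low immediate early genes (0.13 and 0.01). On HFC Akt2 reversed against week 0 alone (0.59). Slc2a1 in the change of HFC minus LFC reversed with the immediate early median as a covariate (-0.04). Outside those 16, and without a search of all, Irs1 reversed with its dimmer probe in HF20 (-0.81) and late against early on HFC (0.24), where Slc2a4 and Irs1 also reversed against week 0 alone (0.29 and 0.25). Another 312 differences kept their direction and side of the threshold. Mean levels moved by over 1 SD only for Slc2a1 (2.61) and Irs2 (4.32) on HF5 with normexp background, and 178 did not. The alternatives with the immediate early and adipocyte medians, and those on saturated spots, were chosen after the data were seen. The comparison with the authors' own table was not run, since it holds only their differences. Fits with no replicate block by time point gave Pik3r1 in HF20 the same difference of -0.80 with adjusted p = 0.886 in limma, and changed no call. Saturated spots limit Pck1 and 5 of the 8 adipocyte markers. The correlation of Pck1 with the 8 markers was 0.91 on the 27 arrays of the high set. It was 0.88 on the 21 of these where Pck1 was not saturated. On the same 21 arrays it was 0.31 with the 3 markers that were never saturated, so the drop came with the change of markers.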
